A study of Mus musculus with 6 samples.

Results

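The nuclear genes that copy, transcribe and translate the mitochondrial genome were followed in whole testes of mice that lack Alkbh1. The set holds 31 genes by symbol, 16 mitochondrial aminoacyl-tRNA synthetases and 15 factors of transcription, replication and translation. A platform annotation of the array named 30 of them, of 18193 genes named in all, at 58 probe sets. Each probe set is a small collection of probes read together and assigned to a gene by that annotation. Mtrf1, a mitochondrial release factor relative, was not among the names and was not analysed here.

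Testes were taken whole at 12 weeks of age, on a C57/BL6 background as the source label spells it (the genotype field has C53/BL6). The WT group held 3 wild-type mice and the KO group 3 mice labelled Alkbh1-/-, with 1 Affymetrix array per mouse and 6 arrays in all. The sources used here name neither the deleted stretch of Alkbh1 nor any litter, and the arrays read a mixture of all testis cell types. RNA integrity numbers ran from 9.8 to 10.

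The mitochondrial genome encodes a handful of respiratory chain subunits together with its own ribosomal and transfer RNAs, and every protein that replicates, transcribes and translates it is made in the cytosol from nuclear genes and imported. The RNA polymerase POLRMT starts transcription with TFAM, which bends and packages the DNA, and TFB2M, which helps to open the promoter. Each synthetase then joins 1 amino acid to its mitochondrial tRNA, and initiation, elongation and release factors of bacterial type drive the ribosome. ALKBH1 has been placed in mitochondria of human cells, where it oxidises a methylated cytosine at the wobble position of the mitochondrial methionine tRNA after NSUN3 has placed the methyl group. Testis is also known for a transcript form of Tfam whose protein lacks the mitochondrial signal and goes to the nucleus.

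Promoter windows of 3 members are shown because Tfb1m and Polg are the genes of the transcription and replication group with separated KO and WT values, and Polrmt holds a match to each of the motifs searched. Each is the 250 bases before the RefSeq start site in build GRCm38.p6, read 5′ to 3′ on the gene's strand, which is the minus strand for all 3. Capitals mark a match to CCGGAAG, a form of the site bound by ETS factors such as GABP, or to GCATGCGC, a form of the NRF1 site, on either strand. The windows are chr17:3557756-3558005 for Tfb1m, chr7:79466274-79466523 for Polg and chr10:79746582-79746831 for Polrmt.
Tfb1m: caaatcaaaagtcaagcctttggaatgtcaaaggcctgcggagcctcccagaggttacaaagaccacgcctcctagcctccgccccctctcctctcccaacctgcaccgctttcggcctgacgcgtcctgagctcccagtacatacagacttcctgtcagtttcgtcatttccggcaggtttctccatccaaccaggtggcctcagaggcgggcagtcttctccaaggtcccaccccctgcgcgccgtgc
Polg: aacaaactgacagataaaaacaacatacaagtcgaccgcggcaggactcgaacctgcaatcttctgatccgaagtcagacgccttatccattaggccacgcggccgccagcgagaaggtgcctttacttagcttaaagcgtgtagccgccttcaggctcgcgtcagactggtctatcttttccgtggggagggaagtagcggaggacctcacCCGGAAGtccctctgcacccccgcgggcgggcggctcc
Polrmt: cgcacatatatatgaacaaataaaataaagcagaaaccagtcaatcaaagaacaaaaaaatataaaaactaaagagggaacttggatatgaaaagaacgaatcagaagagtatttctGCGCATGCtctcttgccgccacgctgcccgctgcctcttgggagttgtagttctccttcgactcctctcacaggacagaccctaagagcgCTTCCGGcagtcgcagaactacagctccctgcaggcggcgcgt
The Polg window held 1 ETS match, whose first base lies 38 bases before the start site. The Polrmt window held an ETS match at 43 bases and an NRF1 match at 133 bases, both on the opposite strand. No match to these exact letters was found in the Tfb1m window, and other forms of the sites were not searched.

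Over the set, RefSeq windows were matched for 28 of the 31 genes, the exceptions being Hars2, Mtif3 and Pars2. The ETS letters were present in 8 of the 28 (28.6%), namely Cars2, Mars2, Mtif2, Polg, Polg2, Polrmt, Sars2 and Tfam, against 7.83% of all 27025 genes with a window. The NRF1 letters were present in 4 (14.3%), namely Polrmt, Rars2, Vars2 and Wars2, against 2.56% of all genes. Both shares over all genes include genes not tested on these arrays, an unlike background for the set. Of the 8 genes with the ETS letters, 4 had a KO minus WT difference above 0, and their median difference was −0.01 log2. Of the 18 tested genes without them, 6 had a difference above 0, with a median of −0.02. For the NRF1 letters, 2 of 3 tested genes with them had a difference above 0 (median 0.003), against 8 of 23 without them (median −0.019). A link between these letters and the differences was not tested.

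Alkbh1 itself was lower in each KO testis. Its brighter probe set read 8.43, 8.65 and 8.72 log2 in WT replicates 1, 2 and 3, and 5.76, 5.30 and 5.20 in KO replicates 1, 2 and 3. The difference was −3.18 ± 0.15 (SE, limma adjusted p = 0.000582). The dimmer tested probe set read 6.97, 6.82 and 7.16 in WT and 6.03, 5.78 and 6.10 in KO. There the groups did not overlap either, but the difference was smaller, at −1.02 ± 0.12, and missed the threshold (limma adjusted p = 0.0697). Whether either probe set lies inside the deleted stretch is unknown. Nsun3, the methyltransferase of the preceding step, had a difference of −0.00042 ± 0.06 at its brightest probe set, and the KO and WT values overlapped.

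The arrays agreed closely, with Pearson correlations from 0.989 to 0.996 across the 27022 probe sets tested, which are not independent of each other. The least alike arrays were WT replicates 1 and 2, which scored −24.4 and 21.0 on a first principal component with 40.8% of the variance, the others lying between −6.85 and 6.87. Germ cell markers identified the tissue as testis, with the 6 elongating spermatid markers at mean values from 14.04 to 14.98 log2, while of 3 epididymis markers named on the array 1 passed the filter on low values, at 6.03. Of the 27022 probe sets 11 were called between KO and WT, 9 higher in KO (0.0333%) and 2 lower (0.0074%).

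Of the members, 29 genes with 41 probe sets passed the filter, which kept the upper 60% of probe sets by mean signal over all 6 arrays. The filter does not use the genotype. Wars2, the tryptophan synthetase, fell under it at each of its 2 probe sets and was not tested in the main fit. No member was called at an adjusted p under 0.05 (limma, 0 of 41 probe sets, with 2 at an unadjusted p under 0.05). Over all probe sets 0.0407% were called and 5.11% had an unadjusted p under 0.05, so that the members' counts lay near the background. At 1 probe set per gene 0 of 29 members were called (1 at an unadjusted p under 0.05), against 0.0432% of all genes, 0.036% being higher in KO and 0.0072% lower. The smallest adjusted p among the members was 0.922.

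The differences were small. At 1 probe set per gene, the brightest on average, they ran from −0.27 to 0.20 log2, and 27 of 29 were under 0.2 in size, as were 93.8% of all 13897 genes. The median was −0.016 for the members and 0.012 for all genes. Differences above 0 were found for 10 of the 29 members (34.5%) and for 55.9% of all genes. Over single probe sets they were above 0 for 15 of 41 and under 0.2 in size for 39 of 41, against 56.4% and 93.2% of all probe sets. The 95% confidence interval lay within 0.3 log2 of 0 for 21 members and within 0.5 for 28, the exception being Mars2. Without WT replicate 2 the members' median was −0.040, the farthest from 0 when single arrays were left out, and without WT replicates 1 and 2 together, which leaves 1 WT array, it was −0.035.

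**Figure D1:**
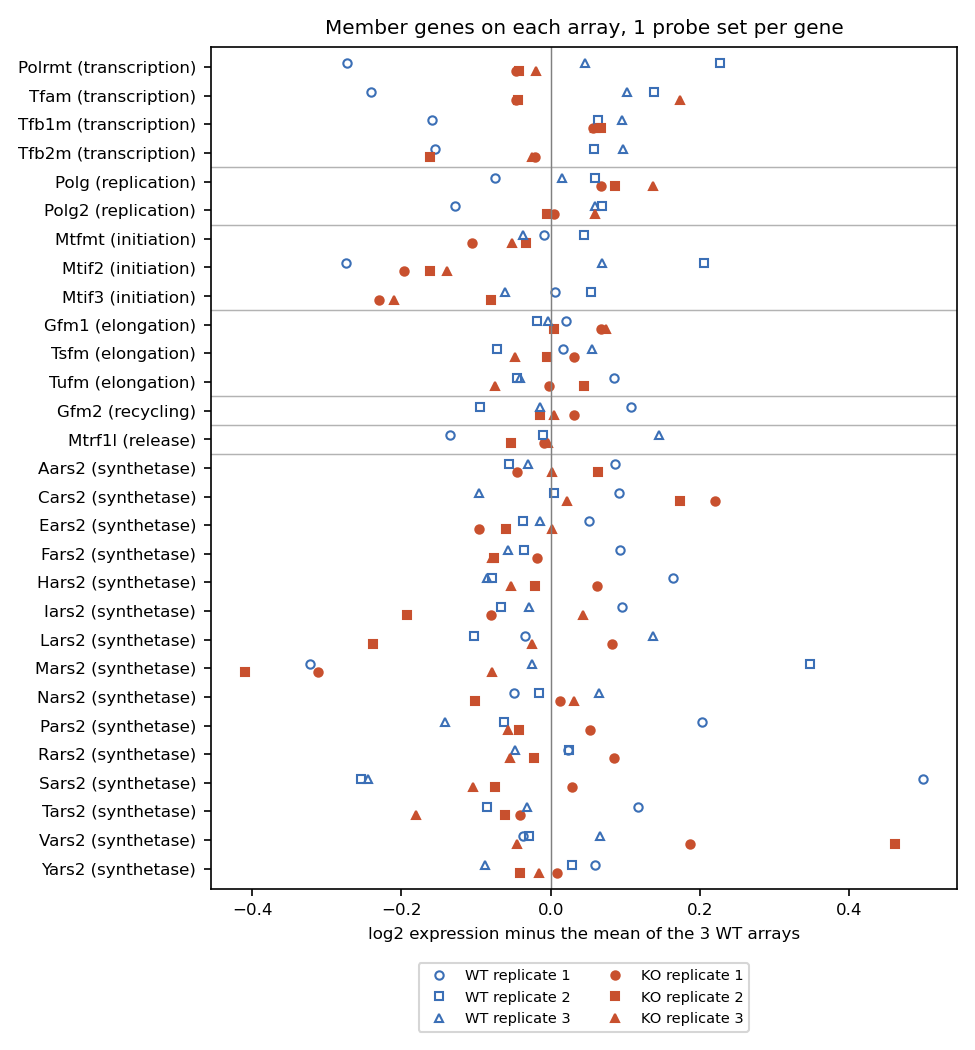
Log2 expression of the 29 member genes on each of the 6 arrays, minus the mean of the 3 WT arrays, at 1 probe set per gene. Open blue symbols are WT and filled red symbols KO, with 1 shape per replicate number. WT replicate 1 lies at the low end for most transcription and replication genes and at the high end for 9 of the 15 synthetases.

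Groups without overlap were about as common as elsewhere on the array. At 4 of the 41 member probe sets (9.76%) all KO values lay on 1 side of all WT values, against 11% of all probe sets (7.12% higher in KO and 3.84% lower), and these were in Tfb1m and Polg (higher in KO) and in Mtif3 and Lars2 (lower in KO). At 1 probe set per gene there were 2 of 29, Polg and Mtif3, against 12.2% of all genes (7.95% higher and 4.24% lower). The share of each cell type in a whole testis bears on such values, since fewer cells of a type and less RNA per cell cannot be told apart in bulk tissue. The 6 round spermatid markers all had differences above 0 (median 0.06), with summed linear signals from 55914 to 60438 in WT and from 58821 to 60034 in KO. Of 8 Sertoli cell markers 7 had differences below 0 (median −0.09), with summed signals from 13683 to 15247 in WT and from 13593 to 14169 in KO. All 6 elongating spermatid markers (median 0.04) and all 4 macrophage markers (median 0.04) had differences above 0. The 2 adipose tissue markers that passed the filter had differences of 0.15 and 1.16, the latter with a standard error of 0.90, and their summed signals ran from 374 to 701 in WT and from 469 to 1307 in KO. Differences above 0 were found for 2 of 6 spermatogonial, 4 of 7 pachytene spermatocyte, 2 of 4 Leydig cell, 1 of 4 peritubular myoid cell and 1 of 2 endothelial markers, and the single epididymis and erythroid markers that passed stood at −0.13 and −0.07. No marker was called (limma), with 1 round spermatid and 1 Sertoli cell marker at an unadjusted p under 0.05. The part of cell composition in the members' values was not tested.

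**Figure D2:**
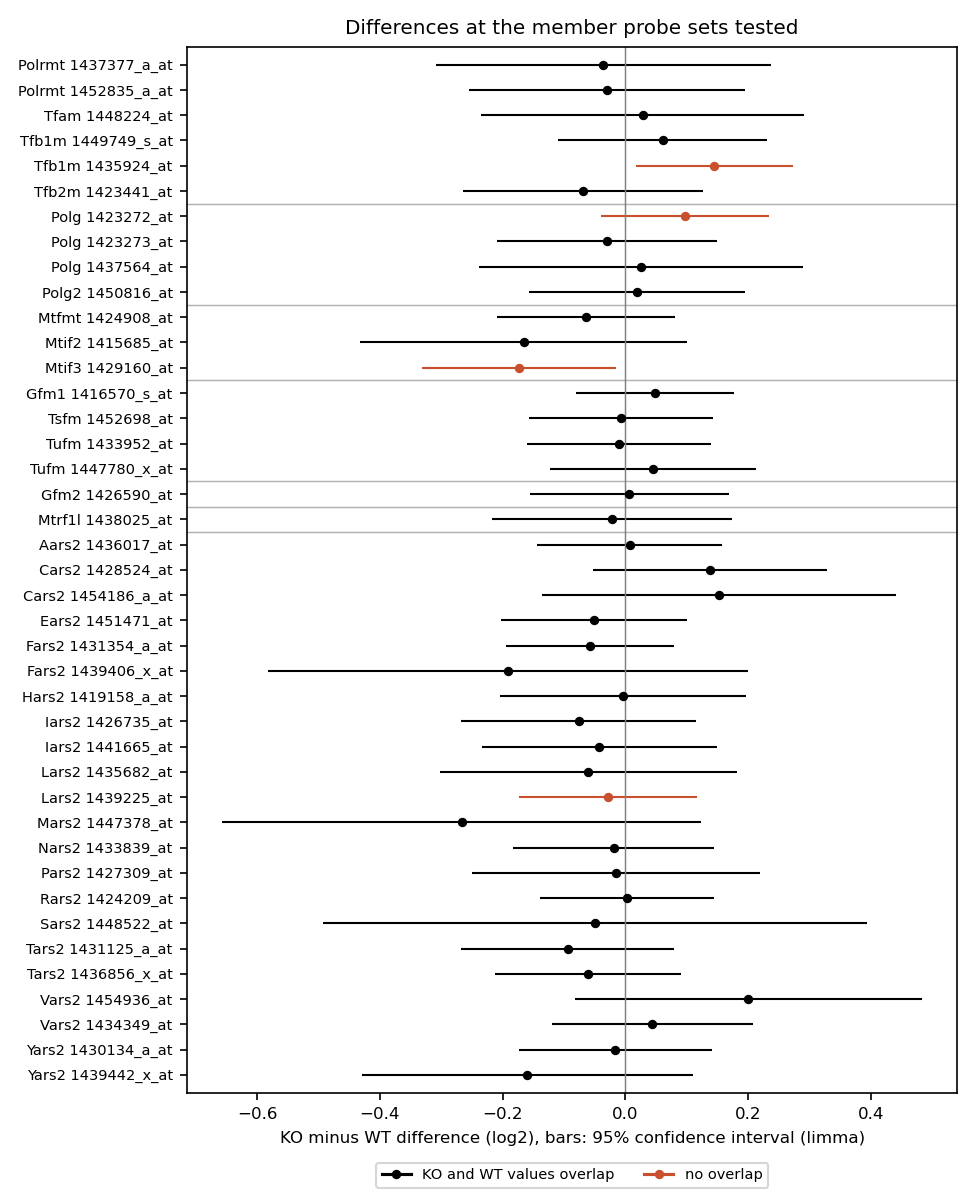
KO minus WT differences (log2) at the 41 member probe sets tested, with 95% confidence intervals from limma, ordered by role from transcription at the top to synthetases at the bottom. Red marks the 4 probe sets without overlap between KO and WT. All but 2 of the intervals include 0, those of Tfb1m (0.02 to 0.27) and Mtif3 (−0.33 to −0.01).

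Among the transcription factors, Tfb1m came closest to the threshold. TFB1M methylates the RNA of the small mitochondrial ribosomal subunit and derives from the same ancestor as TFB2M. The dimmer of its probe sets read 9.76, 9.70 and 9.77 log2 in WT replicates 1 to 3 and 9.85, 9.93 and 9.89 in KO replicates 1 to 3, so that the groups did not overlap. The difference was 0.14 ± 0.06 (SE), or 1.11-fold, with a 95% confidence interval from 0.02 to 0.27 (limma adjusted p = 0.922). Leaving out single arrays moved it between 0.12 and 0.16.

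The brighter Tfb1m probe set overlapped. It read 11.03, 11.25 and 11.28 in WT and 11.24, 11.26 and 11.25 in KO, a difference of 0.06 ± 0.07 (limma adjusted p = 0.993). Only WT replicate 1 lay below the KO values, and without it the difference was −0.02. The 3 KO values had a standard deviation of 0.0056.

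Tfb2m, the promoter-opening paralogue, read 8.95, 9.16 and 9.20 in WT and 9.08, 8.94 and 9.08 in KO. Its difference was −0.07 ± 0.08 (limma adjusted p = 0.993), and the groups overlapped. WT replicate 1 was again the lowest of the WT arrays. Without it the difference was −0.15, and it was −0.02 without WT replicate 3 or without KO replicate 2.

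Tfam read 9.48, 9.86 and 9.82 in WT and 9.67, 9.68 and 9.89 in KO, a difference of 0.03 ± 0.11 with a 95% interval from −0.24 to 0.29. Without WT replicate 1 it was −0.09 and without KO replicate 3 it was −0.04, so the sign rested on those arrays. A second Tfam probe set lay under the filter at means of 5.14 in WT and 5.10 in KO. The files do not say which of them reads the testis form of the transcript.

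Polrmt, the polymerase itself, had differences of −0.04 ± 0.12 and −0.03 ± 0.10 at its 2 probe sets. The brighter read 9.14, 9.64 and 9.46 in WT and 9.37, 9.37 and 9.40 in KO. The dimmer read 9.30, 9.01 and 8.95 in WT and 9.07, 9.10 and 9.0045 in KO. WT replicate 1 was therefore the lowest array at 1 probe set and the highest at the other. Without WT replicate 2 the difference of the brighter was 0.08.

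The replication genes gave values close to 0. Polg, the catalytic subunit of the mitochondrial DNA polymerase, read 10.00, 10.14 and 10.09 in WT and 10.14, 10.16 and 10.21 in KO at its brightest probe set. The groups did not overlap, but WT replicate 2 and KO replicate 1 were nearly level, and the difference of 0.10 ± 0.06 had an interval from −0.04 to 0.23 (limma adjusted p = 0.993). Its other probe sets stood at −0.03 ± 0.08 and 0.03 ± 0.11, so the 3 disagreed in sign. The brightest stood at 0.06 without WT replicate 1 and at 0.13 without WT replicate 2. Polg2, the accessory subunit that holds the enzyme on DNA, stood at 0.02 ± 0.08, and at −0.04 without WT replicate 1.

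**Figure D3:**
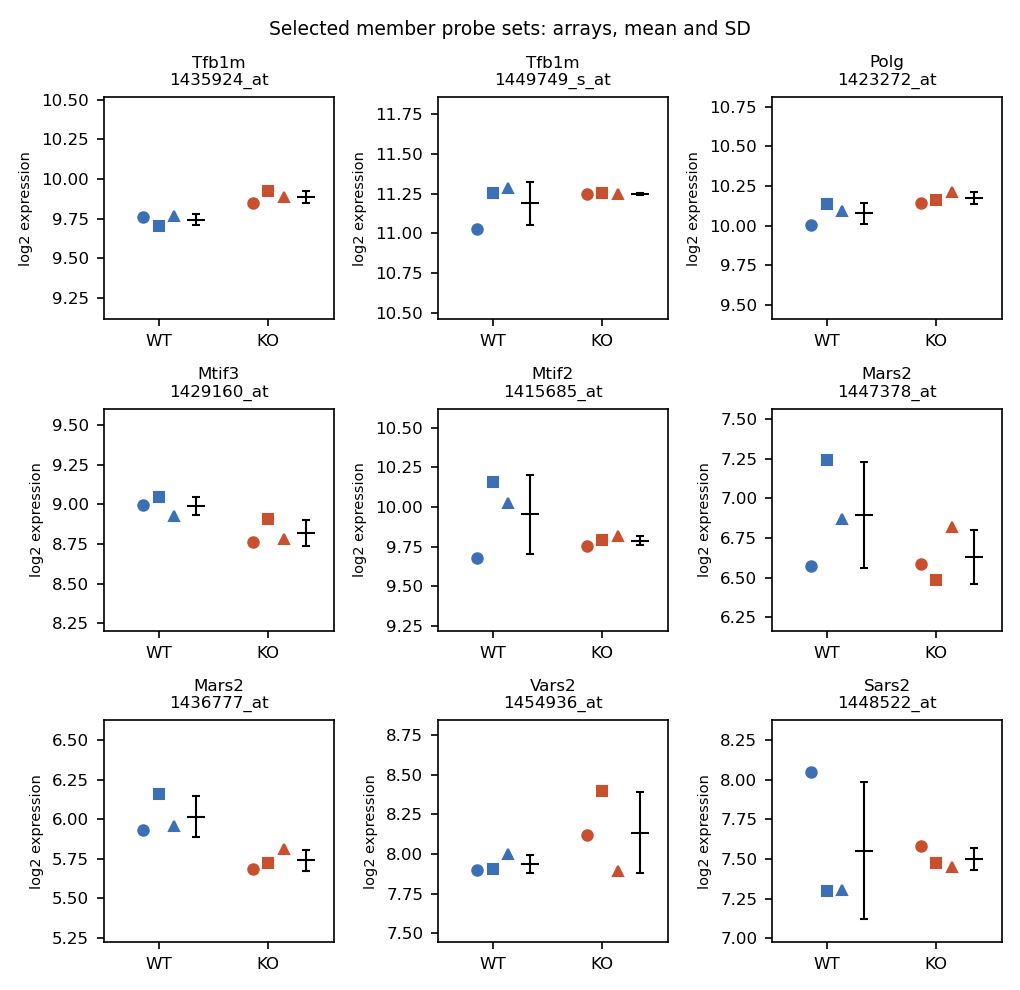
Log2 expression at 9 member probe sets on the 3 WT (blue) and 3 KO (red) arrays, with circles, squares and triangles for replicates 1, 2 and 3 and black bars for the mean ± SD. Every panel spans the same range of log2 units. Mtif3 and the dimmer Mars2 probe set show no overlap with lower KO values, while WT replicate 1 is the outlying WT array for Mtif2 and Sars2.

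The 3 initiation genes all had differences below 0. MTIF3 helps to place the messenger RNA on the small ribosomal subunit, and its gene had the smallest p of the translation factors. Mtif3 read 8.996, 9.04 and 8.93 in WT and 8.76, 8.91 and 8.78 in KO, with KO replicate 2 just under the lowest WT array. The difference was −0.17 ± 0.07, or 1.13-fold lower, with an interval from −0.33 to −0.01 (limma adjusted p = 0.932). It stayed between −0.22 and −0.14 when single arrays were left out.

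MTIF2, the GTPase that brings the formylated initiator tRNA to the ribosome, had a difference of the same size but with overlap. Mtif2 read 9.68, 10.16 and 10.02 in WT and 9.76, 9.79 and 9.82 in KO, a difference of −0.17 ± 0.12 (limma adjusted p = 0.993). WT replicate 1 lay below all KO arrays and the other WT arrays above them. Without WT replicate 1 the difference was −0.30, and without WT replicate 2 it was −0.06.

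Mtfmt, which formylates the initiator methionine and so acts on the tRNA that ALKBH1 modifies, read 7.84, 7.90 and 7.82 in WT and 7.75, 7.82 and 7.80 in KO. The difference was −0.06 ± 0.06 with an interval from −0.21 to 0.08, and the groups overlapped. A probe set under the filter stood on the other side of 0 at 0.18.

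The elongation, recycling and release factors had differences close to 0. Tufm, which delivers aminoacyl-tRNA to the ribosome, stood at −0.01 ± 0.06, and Tsfm, its exchange factor, at −0.01 ± 0.06. Gfm1, the translocase, read 9.37, 9.33 and 9.35 in WT and 9.42, 9.36 and 9.43 in KO, a difference of 0.05 ± 0.06. Its KO replicate 2 lay among the WT values. Gfm2, which splits the ribosome after termination, stood at 0.01 ± 0.07. Mtrf1l, the release factor that reads the stop codons, read 7.17, 7.29 and 7.45 in WT and 7.29, 7.25 and 7.30 in KO, a difference of −0.02 ± 0.08. The KO and WT values of each overlapped, and the widest of their 95% intervals, that of Mtrf1l, ran from −0.22 to 0.17.

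The synthetases were centred slightly below 0. Of the 15 tested at 1 probe set per gene 11 had differences below 0 and 4 above, with a median of −0.019, and 0 of their 22 probe sets were called (limma, 0 at an unadjusted p under 0.05). Probe sets of 1 gene agreed in sign for 7 of the 7 synthetases with several tested. Over all members with several tested they agreed for 9 of 11, the exceptions being Polg and Tufm. Of all 5805 such genes 48.6% had differences of both signs. The genes with differences farthest from 0 were those for methionine and valine.

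Mars2, which charges the mitochondrial methionine tRNA, the tRNA on which ALKBH1 acts, had the difference farthest from 0 of any member. The probe set that passed read 6.57, 7.24 and 6.87 in WT and 6.58, 6.49 and 6.82 in KO, a difference of −0.27 ± 0.17 with an interval from −0.66 to 0.12 (limma adjusted p = 0.993). The WT arrays alone spanned more than the difference. The difference was −0.09 without WT replicate 2 and −0.43 without WT replicate 1. The other Mars2 probe set was under the filter and read 5.93, 6.16 and 5.96 in WT and 5.68, 5.73 and 5.81 in KO. There the groups did not overlap, and the difference was −0.28, which was not tested in the main fit.

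Vars2, the valine synthetase, read 7.90, 7.91 and 7.9996 in WT and 8.12, 8.39 and 7.89 in KO at its brighter probe set. The difference of 0.20 ± 0.12 (limma adjusted p = 0.993) rested on KO replicates 1 and 2, KO replicate 3 lying below every WT array. Leaving out single arrays moved it between 0.07 (without KO replicate 2) and 0.32. The other Vars2 probe set stood at 0.04 ± 0.07. Cars2, the cysteine synthetase, stood at 0.14 ± 0.08 and 0.15 ± 0.12 at its 2 tested probe sets, with overlap at each. The first of these was 0.09 without WT replicate 3 and 0.20 without KO replicate 3.

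Sars2, for serine, showed the widest spread among the WT testes. It read 8.05, 7.30 and 7.31 in WT and 7.58, 7.48 and 7.45 in KO, a difference of −0.05 ± 0.19. WT replicate 1 alone was high, and without it the difference was 0.20.

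Tars2 (threonine) stood at −0.09 ± 0.07, Iars2 (isoleucine) at −0.08 ± 0.08, Lars2 (leucine) at −0.06 ± 0.10, Fars2 (phenylalanine) at −0.06 ± 0.06 and Ears2 (glutamate) at −0.05 ± 0.07. Each of these 5 values moved by over 1.5 times when single arrays were left out. Tars2 was −0.04 without WT replicate 1 and −0.05 without KO replicate 3. Iars2 was −0.03 without WT replicate 1. Leaving out KO replicate 2 gave −0.02 for Iars2, and leaving out KO replicate 3 gave −0.14. Fars2 was −0.01 without WT replicate 1 and −0.09 without WT replicate 3. Ears2 was −0.03 without WT replicate 1 or KO replicate 1 and −0.08 without KO replicate 3. Lars2 was −0.11 and 0.01 on removal of WT replicates 2 and 3 in turn, and −0.13 and 0.03 on removal of KO replicates 1 and 2 in turn, so that its sign too rested on single arrays. A dimmer tested probe set stood at −0.06 ± 0.07 for Tars2, −0.04 ± 0.08 for Iars2 and −0.19 ± 0.17 for Fars2, where the mean over both Fars2 probe sets was −0.12.

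Lars2 had a further probe set with WT values of 6.996, 7.01 and 6.99 and KO values of 6.99, 6.95 and 6.98. These did not overlap, yet the difference was −0.03 ± 0.06. Nars2 (asparagine), Yars2 (tyrosine), Pars2 (proline), Hars2 (histidine), Rars2 (arginine) and Aars2 (alanine) lay between −0.02 and 0.01 at their brightest probe sets. The other tested Yars2 probe set stood at −0.16 ± 0.12 with overlap, and the mean over both was −0.088. At the brightest probe set the difference of each of these 6 genes changed sign when 1 of the arrays was left out.

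Under the filter, 17 member probe sets ran from −0.28 to 0.19, with 12 above 0 and 5 below. At 3 of these the groups did not overlap, against 9.4% of the 18015 probe sets under the filter. They belonged to Mars2, to Lars2 at −0.06 and to Tufm at 0.19, the Tufm probe sets that passed standing at −0.01 and 0.05. The 2 probe sets of Wars2 stood at 0.12 and 0.02, with overlap.

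At 1 probe set per gene, WT replicate 1 was the highest or lowest of the 6 arrays for 18 of 29 members (62.1%), against 49.7% of all genes. By role, a split made after the values were seen, it was the lowest for 5 of the 6 transcription and replication genes, Polg, Polg2, Polrmt, Tfam and Tfb1m, and the highest for none of them. It was the highest for 9 of 15 synthetases, Aars2, Ears2, Fars2, Hars2, Iars2, Pars2, Sars2, Tars2 and Yars2, and the lowest for none. Among the 8 translation factors it was the highest for 2 and the lowest for 2. Over all genes it was the lowest for 32.5% and the highest for 17.2%. Other tested probe sets of these genes did not all follow the split by role. WT replicate 1 was the highest array at the dimmer Polrmt probe set (9.30) and the lowest at the dimmer Fars2 probe set (9.26). At the dimmer Tfb1m probe set WT replicate 2 was the lowest (9.70).

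**Figure D4:**
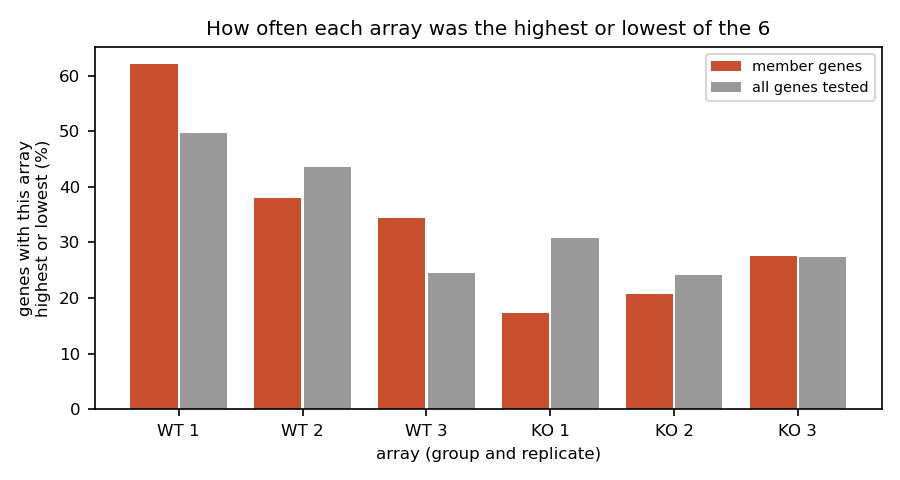
Share of genes (%) for which each array had the highest or the lowest log2 value of the 6, for the 29 member genes (red) and all 13897 genes tested (grey). WT replicate 1 leads for both, at 62.1% and 49.7%, and KO replicate 1 is the extreme array for 17.2% of members and 30.7% of all genes.

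The spread within groups was wider in WT. The median standard deviation over the members was 0.09 in WT and 0.06 in KO, and 20 of 29 members (69.0%) had the wider spread in WT, as did 64.3% of all genes. WT replicate 1 had the highest median deviation of the members from their 6-array means (0.021) and the lowest over all genes (−0.027). The KO arrays stood at 0.014, −0.024 and −0.002 for the members.

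Other nuclear genes of mitochondrial gene expression were set beside the members, from lists written out by name. Of 35 genes of mitochondrial RNA processing, modification and decay 0 were called (limma, 2 at an unadjusted p under 0.05, against 5.51% of all genes), with 19 differences above 0, 16 below and a median of 0.001. The pair with the smaller p were Trmt5, a tRNA methyltransferase on chromosome 12 like Alkbh1, at −0.47 ± 0.13 (adjusted p = 0.863), and Cdk5rap1, which modifies mitochondrial tRNA, at −0.19 ± 0.07 (adjusted p = 0.918). Trmt5 read 9.36, 9.31 and 9.32 in WT and 9.01, 9.04 and 8.54 in KO, with KO replicate 3 the lowest. Leaving out single arrays moved its difference between −0.55 and −0.30, the latter without KO replicate 3.

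Of 16 accessory factors of genome maintenance and transcription 0 were called (limma, 1 at an unadjusted p under 0.05), with 5 differences above 0 and 11 below. Top1mt, the mitochondrial topoisomerase, read 8.48, 8.50 and 8.49 in WT and 8.07, 8.20 and 8.13 in KO. Its difference of −0.36 ± 0.06, or 1.28-fold lower, was larger than any member's but missed the threshold (limma adjusted p = 0.332). It stayed between −0.39 and −0.33 when single arrays were left out.

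The 17 further translation factors held 7 differences above 0 and 10 below, with 0 called (limma, 0 at an unadjusted p under 0.05), and Ngrn, which takes part in assembly of the mitochondrial ribosome, stood at 0.13 ± 0.06 (adjusted p = 0.99). Among 76 mitochondrial ribosomal proteins 0 were called (limma, 2 at an unadjusted p under 0.05), with 37 differences above 0 and a median of −0.001. Mrps6 stood at −0.29 ± 0.08 and −0.19 ± 0.06 at its 2 probe sets (adjusted p = 0.863 for each), and Mrps2 at 0.21 ± 0.08 and 0.07 ± 0.10. Of 8 regulators of mitochondrial biogenesis 5 had differences above 0, and Ppargc1b, a coactivator, stood at 0.29 ± 0.12 (adjusted p = 0.964) with overlap. Without WT replicates 1 and 2 it was 0.04, and leaving out single arrays moved it between 0.20 and 0.42.

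The cytosolic synthetases load the same amino acids on the tRNAs of the main protein synthesis machinery. Of 22 cytosolic and dual genes, synthetase complex subunits included, 15 had differences above 0 and 7 below, with a median of 0.018, and 0 were called (limma, 3 at an unadjusted p under 0.05). Gars, which serves both compartments from a single gene, read 9.83, 9.97 and 9.79 in WT and 10.09, 10.05 and 10.37 in KO, a difference of 0.31 ± 0.10 (adjusted p = 0.863). Iars stood at 0.33 ± 0.12 and Mars1 at 0.33 ± 0.14, each without overlap and each highest in KO replicate 3. Without KO replicate 3 they were 0.19 and 0.16, and Gars was 0.21. The highest values when single arrays were left out were 0.40 for Iars, 0.45 for Mars1 and 0.37 for Gars. Groups without overlap, all higher in KO, were found for 4 of the 22 (18.2%), against 7.95% of all genes in that direction. The mitochondrial counterparts Iars2 and Mars2 had differences of −0.08 and −0.27, a contrast shown for pairs picked by the p of the cytosolic gene. Other pairs went either way, with Vars2 (0.20) above Vars (0.01), Cars2 (0.14) above Cars (0.006) and Tars2 (−0.09) below Tars (0.002). The difference between the cytosolic and mitochondrial genes was not tested.

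**Figure D5:**
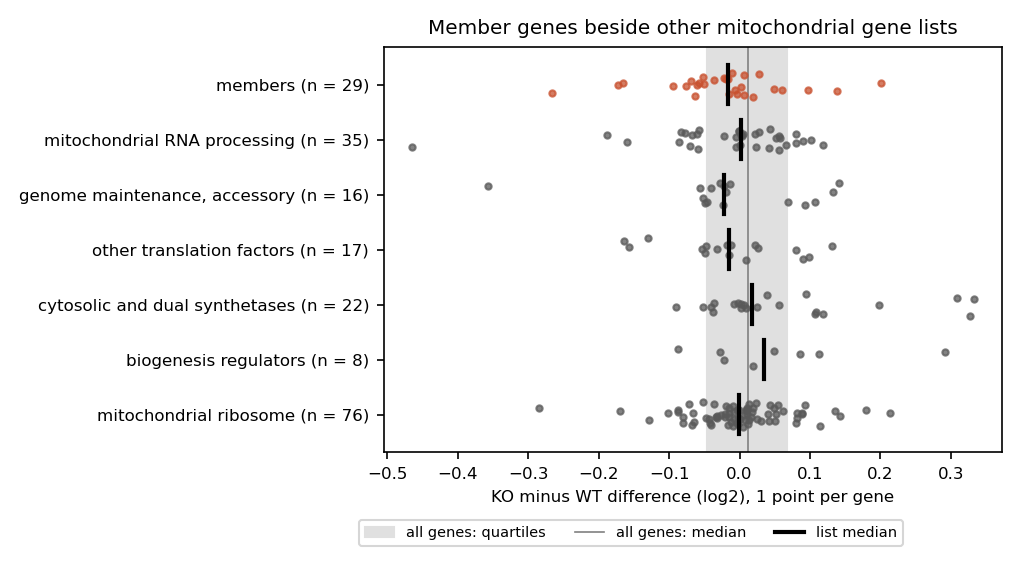
KO minus WT differences (log2) of member genes (red) and of 6 other lists (grey), 1 point per gene at its probe set with the highest mean, with the list median as a black bar. The grey band and line give the quartiles and the median of all 13897 genes. The list medians run from −0.023 for genome maintenance factors to 0.034 for biogenesis regulators, with −0.016 for the members.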

How the data were processed

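Total RNA from 6 testes was hybridised to Affymetrix arrays. The authors deposited normalized log2 values for 45101 probe sets. GCOS 1.4 is named in the submitters' processing notes, while background correction, probe summary and normalization are steps not given in the sources used here. Values from 2.61 to 15.0 with array medians from 6.62 to 6.64 point to a log2 scale. No detection calls were used, so signal over background is unknown, low signals understate fold changes, and any shift of the whole transcriptome would be hidden. Samples were grouped by title, the replicates being separate mice.

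After removal of 64 control probe sets the upper 60% by mean were kept (27022, limit 6.02 log2). Genes were named from the platform annotation, with symbols brought up to date from RefSeq GRCm38.p6 by gene identifier (99.4% of 34945 probe sets with 1 gene matched, 932 named several and 9160 none). The mitochondrially encoded genes had no probe set named and were not analysed here. KO was compared with WT by limma 3.58.1 in R 4.3.3 (lmFit, eBayes with an intensity trend, two-sided), with Benjamini-Hochberg adjustment over the 27022 probe sets at 0.05. For counts over genes, the brightest tested probe set stood for each gene. The median standard error was 0.08 log2 for all probe sets, and the number of arrays limits the precision. The fit was tested on simulated data with changes larger than any member's difference. That test does not show how often changes of the members' size would be called. The members and lists were chosen with earlier results of these data known. Members are named throughout, and genes of other lists by an unadjusted p under 0.05 or, failing that, the smallest p. Alkbh1 and Nsun3 are named as the check of the genotype and its partner step. The alternatives were another normalization, filter, variance model, array weighting, replicate block, choice of probe set and leaving out each array. Figures were drawn with matplotlib 3.10.9.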

Additional observations from a re-analysis of the deposited data

How the results depend on the processing

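No member was called under any of 15 alternatives (limma, 0 calls, with 0 to 6 at an unadjusted p under 0.05 and a smallest adjusted p of 0.271, with array weights). The 6 of 41 came without WT replicate 1, where 2854 of all 27022 probe sets had an unadjusted p under 0.05 (limma). With array weights there were 5 of 41 beside 3397 of all probe sets. The main fit had 1380 over all probe sets, so the background rose as well. Over all probe sets the 11 calls became 7 with the upper 40% kept, 0 without variance moderation (1455 at an unadjusted p under 0.05), 46 with array weights, 2 to 12 when single arrays were left out (4 without WT replicate 3, 6 without KO replicate 1, 2 without KO replicate 3) and 2 without WT replicates 1 and 2, an alternative chosen after seeing the data. The members' median of −0.016 ran from −0.040 to −0.0059 when single arrays were left out and was −0.035 without WT replicates 1 and 2. With the replicate block there were 9 calls in all and 0 among the members (smallest adjusted p 0.868). The labels do not say whether the numbers pair the mice. Same-numbered deviations correlated at 0.22, −0.02 and 0.096. WT replicates 1 and 3 correlated best with the KO replicate of their own number, and WT replicate 2 with KO replicate 3 (0.25). So few arrays cannot decide whether the mice were paired. The drop in Alkbh1 stayed, but its call was lost without moderation (adjusted p = 0.355) and without WT replicates 1 and 2 (adjusted p = 0.0631).

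Of 457 member values under alternatives 54 changed sign, in 16 results that were all smaller than their standard error, and the cause was not tested. Quantile normalization gave Aars2 −0.0054, Gfm2 −0.0027 and Rars2 −0.014, and median centring gave them −0.0045, −0.0046 and −0.0087. Array weights gave Hars2 0.053, Pars2 0.074, Polg2 −0.031, Sars2 0.12, Tfam −0.067, Tfb1m −0.0052, Tufm 0.033 and Yars2 0.032. Without WT replicates 1 and 2 the values were Hars2 0.082, Pars2 0.13, Polg2 −0.040, Sars2 0.19, Tfam −0.074, Tfb1m −0.035, Tufm 0.030, Yars2 0.073 and Nsun3 0.0066. The mean over probe sets gave Tufm 0.017. Leaving out single arrays gave ranges of −0.021 to 0.050 for Aars2, −0.040 to 0.061 for Gfm2, −0.047 to 0.078 for Hars2, −0.13 to 0.028 for Lars2, −0.089 to 0.051 for Mtrf1l, −0.044 to 0.022 for Nars2, −0.086 to 0.086 for Pars2, −0.045 to 0.054 for Polg2, −0.17 to 0.078 for Polrmt, −0.038 to 0.031 for Rars2, −0.18 to 0.20 for Sars2, −0.092 to 0.097 for Tfam, −0.018 to 0.11 for the brighter Tfb1m probe set, −0.043 to 0.021 for Tsfm, −0.038 to 0.032 for Tufm, −0.060 to 0.014 for Yars2 and −0.019 to 0.034 for Nsun3.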

Other observations

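Probe sets of 1 gene did not always rank the WT mice alike. The difference between WT replicates 1 and 2 had both signs for 7 of the 11 members with several tested probe sets, against 53.6% of 5805 such genes. For Polrmt it was −0.50 at 1 probe set and 0.29 at the other, and for Fars2 it was 0.13 and −0.71. Whether probes of these sets also match other transcripts was not examined. Differences of over 0.4 log2 between these arrays were found at 5 of 41 member probe sets (12.2%), against 12.5% of all.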
